A study of Mus musculus with 4 samples.

Results

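The genes described here encode the kinases and assembly factors that build a spindle without centrosomes: the aurora kinases *Aurka*, *Aurkb* and *Aurkc*, the polo-like kinases *Plk1* and *Plk4*, and the cofactors *Tpx2*, *Bora*, *Incenp*, *Tacc3* and *Ckap5*. They were picked out by gene symbol, with no threshold on their measured values but with earlier results of these data known, and are 10 of 55335 annotated genes. Their RNA was measured in mouse oocytes by sequencing of Smart-Seq2 libraries, in which full-length cDNA is amplified from very little RNA. The series asks how alternative splicing of *Ezh2* bears on oocyte gene expression.

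A control group of 2 libraries (genotype Control) was compared with 2 libraries of genotype Mutant, all from the C57BL/6 strain and all carrying the abbreviation MII in their descriptions. The study made mice with a point mutation at the splice site of *Ezh2* exon 3, named Ezh2Long and Ezh2Short, and the label Mutant does not say which of these forms the oocytes carried. The sources used here give no age, treatment or number of oocytes or animals behind a library. The labels do not tie libraries to animals, so p-values measure the spread between these samples, which may be technical.

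Oocytes lose their centrioles during growth, and their spindle is assembled from many small microtubule-organising centres and from the chromosomes. Aurora A, activated by TPX2, and PLK1, activated by aurora A together with BORA, act at the organising centres and poles. Aurora B and aurora C act on chromosomes as the catalytic part of the chromosomal passenger complex, which INCENP scaffolds. Aurora C is known mainly from germ cells, where in mouse oocytes it takes over much of the role that aurora B has in somatic cells.

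The libraries held between 25090032 and 26617816 matrix counts, and 15493 genes were tested. In edgeR's quasi-likelihood test 581 of them passed an adjusted p under 0.05 (3.75%), of which 274 were higher in mutants (1.77%) and 307 lower (1.98%). The CPM of the 2 groups, that is counts relative to the scaled library size, did not overlap for 54.6% of tested genes. *Ezh2* itself (chr6:47530139-47595341, mm10, minus strand) read 313 and 239 CPM in controls 1 and 2 and 176 and 223 CPM in mutants 1 and 2, a log2 fold change of −0.47 (SE 0.195, adjusted p = 0.219). Gene totals do not tell its splice forms apart, so they do not check the genotype. The 12 oocyte markers were all detected in every library and summed to between 15187 and 17283 CPM. The 18 cumulus and granulosa markers summed to 401 and 344 CPM in controls and 694 and 359 CPM in mutants, with between 2 and 9 of them at 0 per library. The 12 leukocyte markers summed to 4.07 and 5.24 CPM in controls and 14.6 and 160 CPM in mutants, with 8 and 10 of them at 0 in controls, 4 in mutant 1 and 0 in mutant 2. Mutant 1 thus stood highest for cumulus and granulosa markers and mutant 2 for leukocyte markers, and the part of either in the results was not tested. In bulk RNA fewer cells of a type and less RNA per cell cannot be told apart.

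The stretch that codes for the activation loop, whose phosphorylation switches these kinases on, shows how alike the aurora genes are and how they can still be told apart. It is printed from GENCODE M21 transcripts on mm10, 5′ to 3′ with exons joined, and capitals mark the bases that differ from *Aurkc*. The *Aurkc* stretch lies in exons 5 and 6 of 7 (chr7:7000093-7002399, plus strand). That of *Aurkb* lies in exons 6 and 7 of 8 (chr11:69048845-69050344, plus strand) and that of *Aurka* in exons 7 and 8 of 9 (chr2:172357213-172359789, minus strand). *Gm12463* (chr4:44752580-44752657, minus strand) is annotated as a processed pseudogene, and it is shown because its counts may bear on those of *Aurkc*.
Aurkc: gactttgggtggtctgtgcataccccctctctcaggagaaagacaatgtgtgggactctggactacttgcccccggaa
Gm12463: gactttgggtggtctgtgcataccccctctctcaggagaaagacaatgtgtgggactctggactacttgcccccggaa
Aurkb: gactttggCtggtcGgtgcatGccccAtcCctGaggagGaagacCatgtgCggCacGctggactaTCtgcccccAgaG
Aurka: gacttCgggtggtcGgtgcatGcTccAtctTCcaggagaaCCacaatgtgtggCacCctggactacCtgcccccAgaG
Over these 78 bases *Aurkb* differed from *Aurkc* at 15 positions and *Aurka* at 14, and *Gm12463* at 0. Over the whole coding sequence *Aurkb* and *Aurkc* were 74.2% identical, with a longest identical run of 25 bases, *Aurka* and *Aurkb* 67.4%, and *Aurka* and *Aurkc* 66.2%. No stretch of 50 bases was shared among the coding sequences of the 3 aurora genes. Over all their annotated transcripts each pair shared fewer than 40 such stretches.

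Levels between genes were compared in TPM, the deposited measure per transcript length. *Tacc3* had the highest mean, 461 TPM, with 351 and 449 TPM in controls 1 and 2 and 493 and 552 TPM in mutants 1 and 2. *Tpx2* followed with a mean of 422 TPM (range 370 to 468 over the 4 libraries) and *Plk4* with 374 TPM (311 to 443). The ranges of these 3 genes overlapped, although *Tpx2* exceeded *Plk4* in 4 of 4 libraries and *Tacc3* exceeded *Tpx2* in 3 of 4. *Aurka* came next with a mean of 166 TPM, then *Ckap5* with 132 TPM and *Bora* with 99.3 TPM, each with a range apart from its neighbours'. *Plk1* had a mean of 42.3 TPM (30.1 to 47.6) and *Incenp* 29.5 TPM (25.4 to 37.1), ranges that overlapped, with *Plk1* higher in 4 of 4 libraries. *Aurkb* had a mean of 20.1 TPM (18.7 to 22.4) and *Aurkc* the lowest, 9.24 TPM (5.03 to 13.1). By rank among all genes *Tacc3* stood between 277 and 426 and *Aurkc* between 5025 and 7307.

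**Figure D1:**
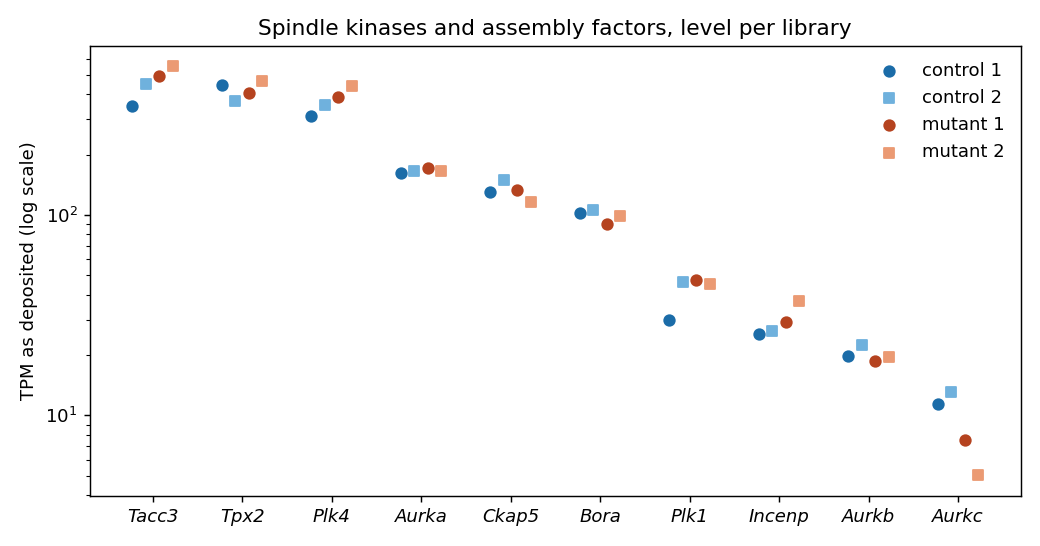
Deposited TPM (log axis) of the 10 genes in each of the 4 libraries, ordered by mean; circles are replicate 1 and squares replicate 2, blue control and orange mutant. *Tacc3*, *Tpx2* and *Plk4* form the top of the order with overlapping ranges, and the mutant libraries of *Aurkc*, at 7.51 and 5.03 TPM, lie under both controls, at 11.3 and 13.1 TPM.

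Aurora A RNA outnumbered aurora B RNA by 8.20 and 7.39 times in controls and 9.17 and 8.44 times in mutants, in TPM. Aurora B RNA in turn stood at 1.75 and 1.71 times aurora C RNA in controls and at 2.49 and 3.90 times in mutants. The *Tpx2* to *Aurka* ratio was 2.72, 2.23, 2.38 and 2.83 in controls 1 and 2 and mutants 1 and 2, with overlapping groups. The polo-like kinase of the centriole, *Plk4*, exceeded *Plk1* by between 7.67 and 10.3 times.

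Between genotypes 0 of the 10 genes passed the threshold in edgeR, against 3.75% of all tested genes. The same count of 0 came from DESeq2, where 1935 of 26406 genes passed, and from limma, where 738 of 15493 did. It also came from edgeR on the RSEM expected counts, where 3.89% of tested genes passed. At an unadjusted p under 0.05 each of these 4 fits gave 1 gene, *Aurkc*, where the share of all tested genes in the first fit was 23.0%. The CPM of the groups did not overlap for 5 of the 10 genes, beside 54.6% of all genes: *Aurka*, *Aurkb*, *Aurkc* and *Bora* were lower in both mutants and *Tacc3* was higher. The median log2 fold change of the 10 was −0.06, beside 0.05 over all tested genes, and the median size 0.21, beside 0.45. A mean of 10 CPM was reached by 9 of the 10 but by only 6541 genes of all, where 15493 were tested. These sizes were thus not compared at like abundance. These counts do not show that the genes were equal between genotypes, and the intervals below give the changes that the libraries leave possible.

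**Figure D2:**
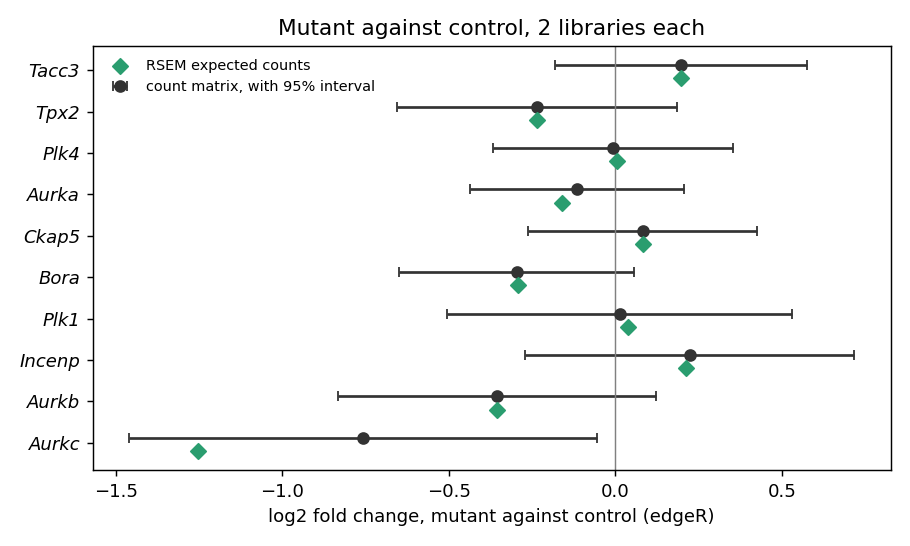
Log2 fold change of mutant against control for the 10 genes (edgeR, 2 libraries per group); black circles are matrix counts with 95% intervals and green diamonds RSEM expected counts. The interval of *Aurkc*, from −1.46 to −0.05, is the only one of the 10 that leaves out 0, and 9 of 10 values lie within 0.36 of 0.

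In the aurora A group, *Aurka* (chr2:172356190-172370535, minus strand) read 200.5 and 192 CPM in controls and 183 and 180 CPM in mutants. The mutants lay under both controls by a small margin, a log2 fold change of −0.11 (SE 0.134, 95% interval −0.44 to 0.21, adjusted p = 0.666). In TPM the groups overlapped, at 163 and 166 in controls and 172 and 165 in mutants, and *Aurka* had the narrowest range of the 10 genes, 1.05 times from lowest to highest library. *Tpx2* (chr2:152847964-152895321, plus strand), which activates aurora A on microtubules under control of the GTPase RAN, read 665 and 553 CPM in controls and 466 and 569 CPM in mutants. Mutant 1 was lowest and mutant 2 fell between the controls (log2 fold change −0.23, SE 0.175, interval −0.66 to 0.19, adjusted p = 0.478). In TPM *Tpx2* read 443 and 370 in controls and 407 and 468 in mutants, with overlap, and the mean was higher in mutants (438, beside 406). Its RSEM transcript length was 2231 and 2382 bases in controls and 2067 and 2154 bases in mutants. *Bora* (chr14:99046222-99074540, plus strand), the cofactor through which aurora A activates PLK1, read 173 and 169 CPM in controls and 129 and 150 CPM in mutants. Both mutants were under both controls, with a log2 fold change of −0.30 (SE 0.147, interval −0.65 to 0.06, adjusted p = 0.285). The *Bora* to *Plk1* ratio in TPM was 3.40 and 2.29 in controls and 1.90 and 2.17 in mutants, so that both mutants lay under both controls, although control 2 was close to mutant 2 and control 1 stood apart from the other 3 libraries. This ratio was not tested.

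*Plk1* (chr7:122159439-122169873, plus strand), a kinase needed for organising centre maturation and for attaching chromosomes, read 33.3 and 44.5 CPM in controls and 35.8 and 42.6 CPM in mutants. The mutants lay between the controls, and the log2 fold change was 0.01 (SE 0.216, interval −0.51 to 0.53, adjusted p = 0.981), with a sign that turned to −0.19 without control 1 and −0.13 without mutant 2. *Gm44985* lies on the opposite strand inside *Plk1* and is annotated as TEC, a gene model that awaits experimental testing. It held 249 and 316 matrix counts in controls and 301 and 356 in mutants but 0 RSEM counts in every library. *Plk1* itself held 826, 1121, 1008 and 1135 matrix counts, fewer than its 1016, 1354, 1238 and 1401 RSEM counts. Its level thus differed between the 2 ways of counting, while its log2 fold change was near 0 in both (0.04 in RSEM counts). With *Gm44985* added, *Plk1* held 1075 and 1437 matrix counts in controls and 1309 and 1491 in mutants. The part of *Gm44985* in the difference between the ways of counting was not tested. *Plk4* (chr3:40800019-40816883, plus strand), the kinase of centriole duplication, which in mouse oocytes also serves microtubule nucleation without centrioles, read 535 and 505 CPM in controls and 481 and 554 CPM in mutants. The groups overlapped (log2 fold change −0.01, SE 0.150, interval −0.37 to 0.35, adjusted p = 0.985), and the sign turned under 6 of the alternatives. In TPM, by contrast, both mutants, at 386 and 443, stood above both controls, at 311 and 355, and the RSEM transcript length of the gene was 2600 and 2374 bases in controls and 2316 and 2301 bases in mutants.

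*Tacc3* (chr5:33658128-33678995, plus strand), an aurora A substrate that binds microtubules with CKAP5, read 518 and 602 CPM in controls and 604 and 680 CPM in mutants. Mutant 1 exceeded control 2 only slightly, and the log2 fold change was 0.20 (SE 0.158, interval −0.18 to 0.58, adjusted p = 0.514). *Ckap5* (chr2:91526762-91620664, plus strand), a microtubule polymerase, read 314 and 288 CPM in controls and 303 and 334 CPM in mutants. The groups overlapped (log2 fold change 0.08, SE 0.143, interval −0.26 to 0.43, adjusted p = 0.786), and the sign turned without control 2 and without mutant 2. The *Tacc3* to *Ckap5* ratio in TPM was 2.69 and 3.01 in controls and 3.70 and 4.76 in mutants, without overlap. In CPM, which is not divided by length, it was 1.65, 2.09, 1.99 and 2.03, with overlap. The RSEM transcript length of *Ckap5*, 3502 and 3099 bases in controls and 3938 and 4829 bases in mutants, varied 1.56 times, more than that of any of the other 9 genes, and its part in the TPM ratio was not tested.

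In the chromosomal passenger complex, *Aurkb* (chr11:69045647-69051664, plus strand) read 23.6 and 24.4 CPM in controls and 18.7 and 18.8 CPM in mutants. Replicates were close and the groups apart, a log2 fold change of −0.36 (SE 0.199, interval −0.83 to 0.12, adjusted p = 0.340). The scaffold *Incenp* (chr19:9872296-9899551, minus strand) read 26.5 and 31.6 CPM in controls and 30.8 and 37.0 CPM in mutants. Mutant 1 fell between the controls, with a log2 fold change of 0.22 (SE 0.206, interval −0.27 to 0.72, adjusted p = 0.575). *Incenp* stood at 1.28 and 1.18 times *Aurkb* in controls and at 1.56 and 1.89 times in mutants, in TPM. The ratio did not overlap between the groups, but it was not tested, and neither gene passed the threshold.

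*Aurkc* (chr7:6995300-7003091, plus strand) gave the largest difference of the 10 genes. It read 9.91 and 10.6 CPM in controls, from 246 and 266 counts, and 6.36 and 5.75 CPM in mutants, from 179 and 153 counts. Both mutants lay under both controls, and the means were 10.2 ± 0.460 and 6.05 ± 0.431 CPM (SD, n = 2 each), 1.69-fold lower in mutants. The log2 fold change was −0.76 (SE 0.293, interval −1.46 to −0.05), with an unadjusted p of 0.0385 and an adjusted p of 0.189 in edgeR's quasi-likelihood test. In the RSEM counts it was −1.25 (SE 0.388, adjusted p = 0.116), from 202 and 223 expected counts in controls and 118 and 76.5 in mutants. Its adjusted p ranged from 0.116 to 0.488 over the alternatives that tested it.

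*Aurkc* has annotated copies in the mouse genome, and the counts of such copies differed between the matrix and the RSEM tables. Among all annotated genes 9 others shared at least 40 stretches of 50 bases with its transcripts, a limit chosen after values had been seen. The closest was *Gm12463* (chr4:44752277-44753125, minus strand), which held 677 of the 1667 stretches, 40.6%. Aligned with *Aurkc*, it was identical at 842 of 848 bases (99.3%), with 1 gap base and a longest identical run of 704 bases. The part of the alignment where they differ most is printed here, to show how few bases a read has for telling them apart. The 150 bases of *Aurkc* lie in exons 6 and 7 (chr7:7002530-7002940, plus strand) and those of *Gm12463* at chr4:44752300-44752449 (minus strand), and capitals mark the 4 differences.
Aurkc: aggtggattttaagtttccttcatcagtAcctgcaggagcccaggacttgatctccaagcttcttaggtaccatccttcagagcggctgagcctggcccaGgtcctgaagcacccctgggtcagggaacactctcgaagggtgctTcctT
Gm12463: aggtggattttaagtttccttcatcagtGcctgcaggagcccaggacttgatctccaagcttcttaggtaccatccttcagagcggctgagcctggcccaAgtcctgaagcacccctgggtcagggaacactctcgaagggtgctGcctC

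*Gm12463* held 0 counts in both controls and 29 and 32 counts in mutants, and the RSEM table listed 0, 0, 29.5 and 47.5. The mutants were thus the libraries with counts, at 1.11 CPM, at least 18.6-fold higher than the floor of 3 counts over the control group (0.0600 CPM), a bound that covers counting error only. It passed the filter on low counts through the mutants alone, so it had to differ to be tested at all, and its adjusted p (0.0466, and 0.0438 in RSEM counts) is given as a description. Without control 1, control 2 or mutant 2 that p was 0.316, 0.311 and 0.0843. *Aurkc* and *Gm12463* added together gave 246 and 266 counts in controls and 208 and 185 in mutants, or 9.91, 10.6, 7.39 and 6.95 CPM. The mutants were still under both controls in this sum, which was not tested.

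The other 8 copies lie together on chromosome 7, between 10810780 and 11594194, and are annotated as unprocessed pseudogenes. Each shared between 2.8% and 10.3% of the *Aurkc* stretches, and they were not aligned with it as *Gm12463* was. *Gm7789* held 331 and 304 counts in controls and 103 and 76 in mutants, a log2 fold change of −1.96 (SE 0.320, adjusted p = 0.0319). *Gm45598* held 137 and 130 counts in controls and 33 and 46 in mutants (−1.88, adjusted p = 0.0660), and *Gm45549* held 52 and 38 in controls and 2 and 0 in mutants (adjusted p = 0.0475, again a description, since it passed the filter through the controls alone). *Gm45598* passed in DESeq2 (adjusted p = 0.0128) and without mutant 1 (0.0307). *Gm6909* read 21, 24, 7 and 3 counts (adjusted p = 0.167) and also passed the filter through the controls alone, so that this p is a description too. The remaining 4 copies had at most 3 counts in a library and were not tested. In RSEM counts *Gm7789* missed the threshold (−1.44, adjusted p = 0.0668) and *Gm45549* had 2, 2, 0 and 0 counts, too few to test. Without control 1 and without control 2, fits in which the lone control is assumed to vary like the mutants, *Gm7789* had adjusted p of 0.303 and 0.273 at log2 fold changes of −1.90 and −2.08. *Gm45549* did not pass in those fits either (0.375 and 0.332), nor did *Gm45549* without mutant 2 (0.0501). With scaling by total counts none of these 3 copies passed, at 0.0540 for *Gm12463*, 0.0505 for *Gm7789* and 0.0600 for *Gm45549*, and with upper quartile scaling *Gm45549* did not (0.0503). Summed over the 8 copies the counts were 547 and 496 in controls and 150 and 130 in mutants, a sum larger than *Aurkc* itself in both controls and smaller in both mutants. In RSEM counts the sum was 390, 374, 124 and 127, larger than *Aurkc* in all 4 libraries. How the matrix counted reads that could belong to *Aurkc* or to a copy is not stated in the sources used here. How much of the *Aurkc* difference comes from such reads was not tested.

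**Figure D3:**
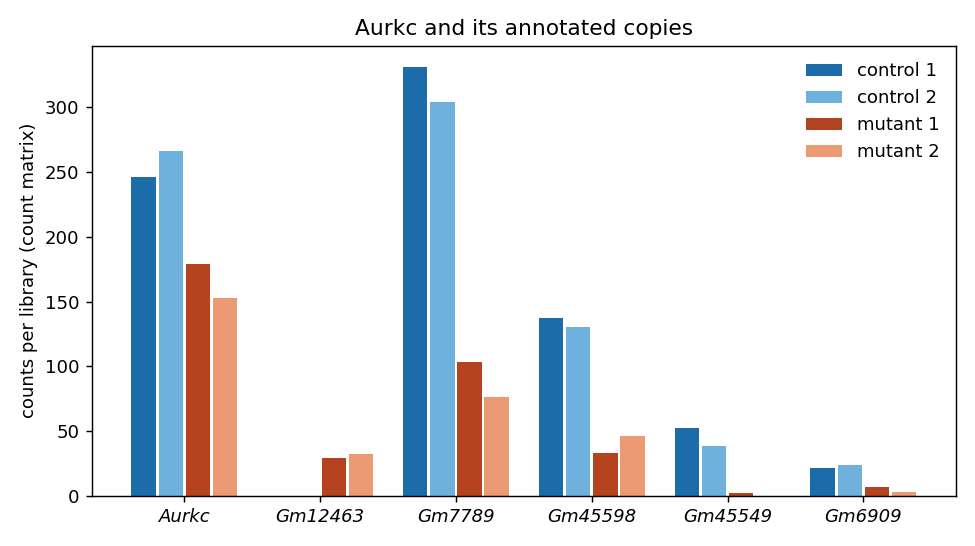
Matrix counts per library of *Aurkc* and its 5 tested copies; blue bars are controls and orange bars mutants. *Gm12463* has bars in the mutants only (29 and 32 counts), and the 4 copies from chromosome 7 are lower in both mutants than in both controls, as is *Aurkc*.

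Among genes that share stretches with the other 9, *Gm44985* was described with *Plk1*, and *Brd8*, which matches 79 stretches of *Plk4* on the opposite strand, held between 623 and 742 counts. *Gm9742*, a processed pseudogene that shares 188 stretches with *Plk4*, held 80 and 41 counts in controls and 11 and 34 in mutants (log2 fold change −1.54, adjusted p = 0.272), where *Plk4* itself held between 12726 and 14749 counts. *Plk-ps1*, which shares 147 stretches with *Plk1*, and *Gm48800*, which shares 71 with *Bora*, held 0 counts. *Tmem129*, which overlaps *Tacc3* on the opposite strand, held between 1 and 13 counts.

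The wider pathway was read through 6 lists with 75 genes, of which 73 were tested. Past the threshold 1 was higher and 3 were lower in mutants and 69 were not called, where 1.77% of all tested genes were called higher and 1.98% lower. An unadjusted p under 0.05 was found for 11 of the 73, a smaller share than the 23.0% of all tested genes. The median log2 fold change over the 73 was 0.01, beside 0.05 over all genes, and the groups did not overlap for 41 of them, a share near the 54.6% of all genes. Without control 1 and without control 2 the count of 4 was 0, in fits that called only 22 and 27 genes of all, and without mutant 1 it was 8, in a fit that called 1688. With the RSEM counts it was 2, both lower, beside 2.2% of all genes called lower in those counts, and with scaling by total counts it was 1.

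Among 21 tested genes of the microtubule-organising centre 1 was called higher and 1 lower, where 1.77% and 1.98% of all tested genes were called in these directions, and both encode γ-tubulin, the subunit of the ring from which microtubules grow. *Tubg1* (chr11:101119938-101126419, plus strand) read 26.9 and 31.8 CPM in controls and 68.0 and 53.2 CPM in mutants. Both mutants were above both controls, 2.06-fold (log2 fold change 1.05, SE 0.204, adjusted p = 0.0473). Its neighbour *Tubg2* (chr11:101155907-101161787, plus strand) read 95.6 and 123 CPM in controls and 55.5 and 42.5 CPM in mutants. Both mutants were under both controls, 2.23-fold (log2 fold change −1.15, SE 0.206, adjusted p = 0.0405). In TPM the *Tubg2* to *Tubg1* ratio was 3.61 and 3.88 in controls and 0.851 and 0.828 in mutants, so that the more abundant of the pair was *Tubg2* in controls and *Tubg1* in mutants. Their summed counts, 3040 and 3893 in controls and 3479 and 2547 in mutants, overlapped. In RSEM counts *Tubg2* passed (−1.35, adjusted p = 0.0220) and *Tubg1* did not (0.81, adjusted p = 0.0744).

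The γ-tubulin genes were 93.3% identical over 1356 coding bases, with 91 differences and a longest identical run of 164 bases. They shared 244 stretches of 50 bases, 11.0% of those of *Tubg1* and 14.3% of those of *Tubg2*. The 150 coding bases where they differ most are printed here, since a read from this window tells the genes apart. They lie in exons 10 and 11 of 11 in both genes (*Tubg1* chr11:101125350-101126166 and *Tubg2* chr11:101161174-101161539, plus strand, mm10), and capitals mark the 27 differences.
Tubg1: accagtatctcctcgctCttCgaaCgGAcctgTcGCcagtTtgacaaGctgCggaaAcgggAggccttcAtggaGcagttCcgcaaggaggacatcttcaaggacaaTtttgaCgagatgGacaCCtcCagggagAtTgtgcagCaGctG
Tubg2: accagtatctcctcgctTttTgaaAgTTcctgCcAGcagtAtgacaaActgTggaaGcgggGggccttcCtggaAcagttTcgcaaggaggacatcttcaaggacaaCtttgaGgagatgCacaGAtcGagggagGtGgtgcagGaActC

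Of the 8 augmin subunits, which hold γ-tubulin on existing microtubules so that the spindle can branch, 1 was called lower, beside 1.98% of all tested genes, and 7 were not called. *Haus8* (chr8:71248561-71272934, minus strand), the subunit that in human cells binds the microtubule, read 29.8 and 28.2 CPM in controls and 13.0 and 8.75 CPM in mutants. Both mutants were under both controls, 2.66-fold (log2 fold change −1.41, SE 0.262, adjusted p = 0.0439). In RSEM counts it was −1.38 (adjusted p = 0.0512). *Myo9b* overlaps it on the opposite strand, and held between 162 and 303 counts.

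Of the 15 TACC3 and CKAP5 partners and other microtubule-end genes 1 was called lower, beside the same 1.98%, and 14 were not called. *Gtse1* (chr15:85859745-85876573, plus strand), whose product follows growing microtubule ends and in human cells limits the depolymerase MCAK, read 39.5 and 40.8 CPM in controls and 7.85 and 10.3 CPM in mutants. The mutants were 4.42-fold lower (log2 fold change −2.14, SE 0.230, adjusted p = 0.00865), and the RSEM counts gave −2.30 (adjusted p = 0.00604). It was the gene of the 73 with the smallest adjusted p. With a control left out, the lone control is assumed to vary like the mutants, and few genes of any kind passed. In these fits, without control 1 and without control 2, the adjusted p was 0.182 and 0.190 for *Gtse1*, 0.337 and 0.293 for *Tubg1*, 0.225 and 0.293 for *Tubg2*, and 0.326 and 0.295 for *Haus8*. Without mutant 2 it was 0.0635 for *Tubg2* and 0.0568 for *Haus8*. With scaling by total counts it was 0.0613 for *Tubg1*, 0.0709 for *Tubg2* and 0.0692 for *Haus8*. The log2 fold changes without control 1 and without control 2 were −2.18 and −2.17 for *Gtse1*, 0.92 and 1.12 for *Tubg1*, −1.33 and −1.01 for *Tubg2*, and −1.38 and −1.502 for *Haus8*, close to those with all libraries.

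**Figure D4:**
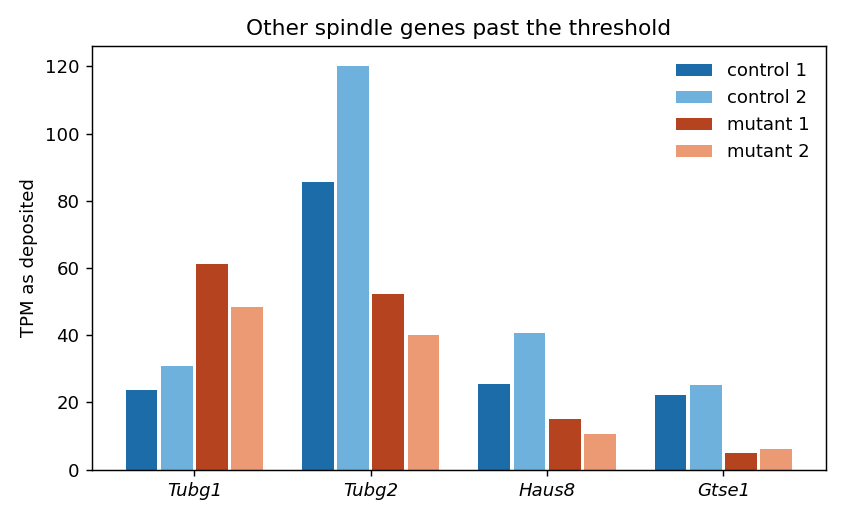
Deposited TPM per library of the 4 other spindle genes past the threshold; blue bars are controls and orange bars mutants. *Tubg1* is higher and *Tubg2*, *Haus8* and *Gtse1* are lower in both mutants than in both controls.

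The other 3 lists held no called gene. Among the 6 partners of the passenger complex 2 had an unadjusted p under 0.05, beside 23.0% of all tested genes, and the median log2 fold change was −0.19. These were the other subunits of the complex itself. *Birc5*, which encodes survivin, read 320 and 334 CPM in controls and 258 and 182 CPM in mutants (log2 fold change −0.57, adjusted p = 0.144). *Cdca8*, which encodes borealin, read 453 and 404 CPM in controls and 307 and 349 CPM in mutants (−0.38, adjusted p = 0.195). For *Birc5* and *Cdca8*, as for *Aurkb* and *Aurkc*, both mutants were under both controls, while *Incenp* overlapped, and 54.6% of all genes had groups that did not overlap. *Birc5* passed in DESeq2 (adjusted p = 0.0353) and without mutant 1 (0.0225). Of the 13 tested regulators of aurora A and PLK1 1 had an unadjusted p under 0.05, and the most abundant, *Cenpu* and *Cdc25a*, had log2 fold changes of −0.30 (adjusted p = 0.375) and −0.40 (adjusted p = 0.389). Of the 10 genes of the RAN pathway 0 had an unadjusted p under 0.05, and their median was 0.31. Its most abundant members were *Tnpo1* (0.31, adjusted p = 0.260) and *Nusap1* (0.27, adjusted p = 0.330), and the latter read −0.06 in RSEM counts.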

How the data were processed

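RNA was measured in 4 Smart-Seq2 libraries of mouse oocytes, 2 of them control and 2 mutant by title. Raw counts for each gene, unnormalized and whole, were deposited as 1 matrix by the authors. The RSEM expected counts, which share reads between genes, were deposited in 1 table per library, per the file headers. The authors deposited TPM in these tables, which was used for levels between genes, and FPKM, which was not used. The authors deposited gene lengths in bases, per the file headers. The build mm10 and the tools RSEM, STAR and cutadapt 1.16 are named, without their roles, per the submitters' processing notes. The sources used here do not name the counter behind the matrix or its strand setting, and overlapping genes and near-identical copies are uncertain.

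Matrix counts were tested with edgeR 4.0.16 in R 4.3.3 (TMM, filterByExpr, glmQLFit, glmQLFTest, group as sole term, Benjamini-Hochberg adjustment over 15493 genes, threshold 0.05), with 2 residual degrees of freedom and a common biological coefficient of variation of 0.353. The fit was tested on counts simulated with this common coefficient of variation for every gene. It recovered 0% of genes changed 2-fold, 46% at 4-fold, 96% at 8-fold and 100% at 16-fold, from 50 genes each. At that spread 2-fold changes were thus not called. In the libraries themselves *Tubg1* was called at 2.06-fold (SE 0.204) and *Tubg2* at 2.23-fold (SE 0.206). The SE of the 10 genes lay between 0.134 and 0.293. The simulation gave every gene 1 spread, so it does not show which changes could be called in genes that vary less. Alternatives were DESeq2 1.42.0, limma 3.58.1 on log2 CPM (prior count 2), other scalings and filters, rounded RSEM expected counts, a replicate block and each library left out. The depth lay between 25090032 and 26617816 counts per library. PCR reads are not independent molecules, so floors cover counting error only.

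The genes and the pathway and marker lists were chosen with earlier results of these data known. Named genes were *Ezh2*, the 10 genes, and of each list those past the threshold, at most 4, or the 2 with the highest mean TPM. The exceptions, chosen after their values were seen, were the copies and overlapping genes. Coding identities and copies were computed in Python 3.11.15 with Biopython 1.88 from GENCODE M21 transcripts.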

Additional observations from a re-analysis of the deposited data

How the results depend on the processing

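Of the 10 spindle kinases and assembly factors 0 passed the threshold under each of the 12 alternatives, and the smallest adjusted p of any was 0.116. Of 119 recomputed fold changes of these genes 109 kept their direction and 10 reversed. *Plk4* went from −0.01 to 0.0437 with upper quartile scaling, 0.083 with total-count scaling, 0.0369 with a mean of at least 10 CPM, 0.0033 with RSEM counts, and between −0.1219 and 0.0731 with single libraries left out. *Plk1* lay between −0.1913 and 0.1899 and *Ckap5* between −0.0257 and 0.1352 with single libraries left out. *Nusap1* turned to −0.0554 with RSEM counts. *Aurkc* was not tested at a mean of at least 10 CPM, which it did not reach. The 581 calls over all genes became 1935 with DESeq2, 1322 with no filter on low counts, and between 22 and 1688 with single libraries left out, where 22 and 27 were left without control 1 and control 2. The 4 calls among other spindle genes became 1 with total-count scaling, 2 with RSEM counts and between 0 and 8 with single libraries left out. The cause of these changes was not tested.

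The groups share replicate numbers, and with the replicate number as a block 1213 genes passed, while the count of the 10 genes stayed at 0 and *Gm45598* passed (adjusted p = 0.0417). Deviations of same-numbered libraries correlated at 0.176 over 15493 genes, but with 2 pairs and no label that ties the numbers together, they were not taken to pair the libraries. With 2 libraries per group, 9 of 10 intervals included 0 and spanned changes in either direction.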
